A study of Homo sapiens with 24 samples.

Results

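MT-ND6 is the mRNA of mitochondrially encoded NADH dehydrogenase subunit 6 and 1 of the 37 mitochondrial transcripts that were profiled. Its rows were taken by gene name, without regard to any measured value, and cover 525 of the 15416 positions of the table. By the GENCODE release 44 annotation of hg38, MT-ND6 (transcript ENST00000361681.2, gene ENSG00000198695.2) lies at chrM:14149-14673 on the minus strand, in 1 exon that is coding throughout. The glutamate tRNA gene MT-TE adjoins its 5′ end at chrM:14674-14742 on the same strand, and the gene of another complex I subunit, MT-ND5 (chrM:12337-14148, plus strand), stops at the neighbouring nucleotide of the opposite strand.

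RNA came from mitochondria-enriched fractions of 4 lines, all derived from human embryonic kidney cells (HEK293T Flp-In T-REx, which carry an integration site for transgenes). They were knock-out lines without MRM1, MRM2 or MRM3, the 3 methyltransferases that act on ribose 2′ positions of the 16S mt-rRNA, and the parental line. The MRM2 knock-out was a clone made with zinc finger nucleases, and the medium described for generated knock-out cells had added serum and uridine, whereas the MRM1 and MRM3 knock-out lines were listed as gifts, so that line, clone, origin and, where it differed, medium cannot be told apart from genotype. Each line had 3 biological replicates from separate culture plates, and the fragmented and ligated RNA of every replicate was divided and reverse transcribed with either 2 μM or 500 μM dNTPs, which gave 24 libraries.

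The ND6 protein is a membrane subunit of complex I, the NADH:ubiquinone oxidoreductase of the respiratory chain. Both strands of mitochondrial DNA are transcribed into long precursors, from which tRNAs are excised, and MT-ND6 is the mRNA of the light-strand precursor, which otherwise yields mainly tRNAs. 2′-O-methylation of a ribose protects the neighbouring bond from alkaline cleavage and makes reverse transcriptase pause when dNTPs are scarce, which is why ends of reads were counted at every nucleotide.

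The composition of MT-ND6 differed from that of every heavy-strand mRNA. G made up 35.6% and C 7.05% of its bases, whereas in the 12 mRNAs encoded on the other strand G ranged between 6.28% and 16.2% and C between 29.5% and 36%. T, which stands for uridine in all sequences given here, made up 37.7% of MT-ND6, against 21.7% to 30.3% in the heavy-strand mRNAs, and A 19.6%, against 26.8% to 38.6%. The stretches of 30 nucleotides on which the results turn are printed 5′ to 3′ in the sense of the transcript, from hg38, minus strand. Capitals mark nucleotide 1 at the junction with MT-TE, the most frequent read start; A4 and A8, and A437, A440 and A443, the 5 residues with the highest reverse transcription (RT) stop scores in parental cells; and the last codon, AGG, at which translation of ND6 ends.
MT-TE/MT-ND6 junction, chrM:14656-14685: cgtgcgagaataAtgatgtatgctttgttt
nucleotides 1 to 30, chrM:14644-14673: atgAtgtAtgctttgtttctgttgagtgtg
nucleotides 428 to 457, chrM:14217-14246: gggctttgtAtgAttAtgggcgttgattag
nucleotides 496 to 525, chrM:14149-14178: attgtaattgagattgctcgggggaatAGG
These windows contain 2 or 3 C residues each.

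The 2 μM libraries held 483960 to 4048537 mitochondrial reads and the 500 μM libraries 162673 to 807322, with the MRM2 knock-out at the low end of the 500 μM range (162673 to 194073). The rRNAs took 69.5% to 73.9% of the reads at 500 μM in the MRM2 knock-out, 70.9% to 73.0% in the MRM3 knock-out and 77.7% to 80.3% in the MRM1 knock-out, against 78.8% to 79.9% in parental cells. The 13 mRNAs took 17.5% to 22.7% in the MRM3 knock-out, against 12% to 13.1% in parental cells. Shares of reads therefore moved between RNA classes, and each MT-ND6 result is given on more than 1 scale. Fewer cells carrying a transcript and less of it per cell cannot be told apart in such bulk libraries.

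MT-ND6 was among the least abundant mRNAs in every line. RPM is the usual scaling of reads to a common total, here that of the mitochondrial reads of a library. Per kilobase of transcript, the MT-ND6 level at 500 μM averaged 2454 ± 78.9 RPM in the MRM1, 5074 ± 183 RPM in the MRM2 and 4360 ± 577 RPM in the MRM3 knock-out, against 1870 ± 148 RPM in parental cells (SD, n = 3 each). It ranked 12th of 13 mRNAs in MRM1, 11th in MRM2 and 13th in MRM3, against 13th in parental cells. The 13 mRNAs are counted as annotated. In the MRM1 and MRM2 knock-out lines all 3 MT-ND6 values lay above those of MT-ATP8, the lowest of the 13 there. MT-ATP8 is a 207-nt reading frame of an ATP synthase subunit that overlaps MT-ATP6 on a shared, bicistronic mRNA. MT-ATP6 had 11576 RPM per kilobase in parental cells, so the MT-ATP8 level is not that of a separate mRNA. In parental cells MT-ATP8 was the next above MT-ND6, with 1951 ± 117 RPM per kilobase, and the ranges of these neighbours overlapped (1698 to 1956 for MT-ND6 and 1876 to 2086 for MT-ATP8), so that their order was within the spread. The median of the other 12 mRNAs of parental cells was 4.18 times the MT-ND6 level and the highest, MT-CO1, 15.4 times. At 2 μM MT-ND6 was again the lowest of the 13 in parental cells, with 1880 ± 135 RPM per kilobase, and MT-ND1, the next, was 1.84 times as high.

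Relative to the library total, the 500 μM libraries of MRM3 knock-out cells held more MT-ND6 reads than those of parental cells. The counts were 587, 502 and 1145 reads in the MRM3 knock-out, or 2552, 1958 and 2357 RPM, against 829, 539 and 629 reads, or 1027, 892 and 1026 RPM, in parental cells. The raw counts overlapped and the RPM values did not, and on the TMM scale of edgeR, which balances most transcripts against each other, the levels were 1814, 2413 and 3026, against 1267, 1076 and 1303. With this scaling MT-ND6 rose by a log2 fold change of 0.99 (SE 0.28, 95% confidence interval 0.45 to 1.53, edgeR quasi-likelihood adjusted p = 0.0013). Of all transcripts, 15 of 37 passed in this comparison (40.5%), 8 of them higher (21.6%). The increase was shared with other mRNAs: set against the 13 mRNAs alone, the change of MT-ND6 was 0.27 (SE 0.15, edgeR adjusted p = 0.099), and its share of the mRNA reads was 1.46%, 0.95% and 1.04% in the knock-out, against 0.81%, 0.68% and 0.86% in parental cells. When the 6 libraries of the comparison were fitted alone, the change was 0.71 (edgeR adjusted p = 0.065), and with each of the 12 libraries in turn as the TMM reference it was 0.71 to 1.66 and passed with 11 of 12.

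In MRM2 knock-out cells, MT-ND6 had 521, 491 and 447 reads, or 2685, 2560 and 2748 RPM, the 3 highest of the 12 libraries. These lay far above the parental values given above, with a mean 2.71 times as high (2664 ± 95.8, against 981 ± 77.9, SD, n = 3 each). On the TMM scale the log2 difference was 0.71 (SE 0.27, 95% confidence interval 0.17 to 1.25) and missed the threshold (edgeR adjusted p = 0.062), whereas 5 of 37 transcripts passed (13.5%), all of them lower and both rRNAs among them. It passed when libraries were scaled to total reads (1.44, edgeR adjusted p = 4.5e-05), with DESeq2 size factors (0.86, DESeq2 adjusted p = 0.0105), with the rRNAs left out (0.76, edgeR adjusted p = 0.032), with the 13 mRNAs alone (1.10, edgeR adjusted p = 5.9e-06), with the 6 libraries of the comparison alone (0.64, edgeR adjusted p = 0.036) and without the second MRM2 knock-out library (0.74, edgeR adjusted p = 0.049). Among mRNA reads its share was 1.85%, 2.18% and 2.08%, against 0.81%, 0.68% and 0.86% in parental cells. With each of the 12 libraries in turn as the TMM reference, the difference was 0.58 to 1.14 and passed with 8 of 12. It did not pass when reads that begin at nucleotide 1 were left out (0.58, edgeR adjusted p = 0.17). Leaving out 1 replicate gave 0.63 to 0.76, with edgeR adjusted p of 0.049 to 0.22. The difference was positive under all 17 alternatives, of which those with 3′ ends and with no filter on reads only repeated the main fit. Of the 37 transcripts none had a larger log2 difference than MT-ND6 on the main TMM scale.

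The MRM1 knock-out differed least. Its libraries held 547, 623 and 316 MT-ND6 reads, or 1336, 1268 and 1261 RPM, each above the 3 parental libraries. On the TMM scale the levels were 1262, 1350 and 1413, against 1267, 1076 and 1303 in parental cells, and the groups overlapped. The log2 difference was 0.14 (SE 0.27, 95% confidence interval -0.40 to 0.68, edgeR adjusted p = 0.86), and no transcript of the 37 passed, with a percentage called of 0; 2 had an unadjusted p under 0.05, and DESeq2 called 0 as well. Against the 13 mRNAs alone the difference was 0.65 and passed (edgeR adjusted p = 0.0083), with shares of 1.44%, 1.18% and 1.06% of the mRNA reads, against 0.81%, 0.68% and 0.86% in parental cells. RPM values without overlap were common: 15 of 37 transcripts (40.5%) showed this for MRM1, 27 (73%) for MRM2 and 16 (43.2%) for MRM3. The exact permutation test of 3 against 3 libraries gave p = 0.1 for MT-ND6 in each case, the smallest it can give.

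**Figure D1:**
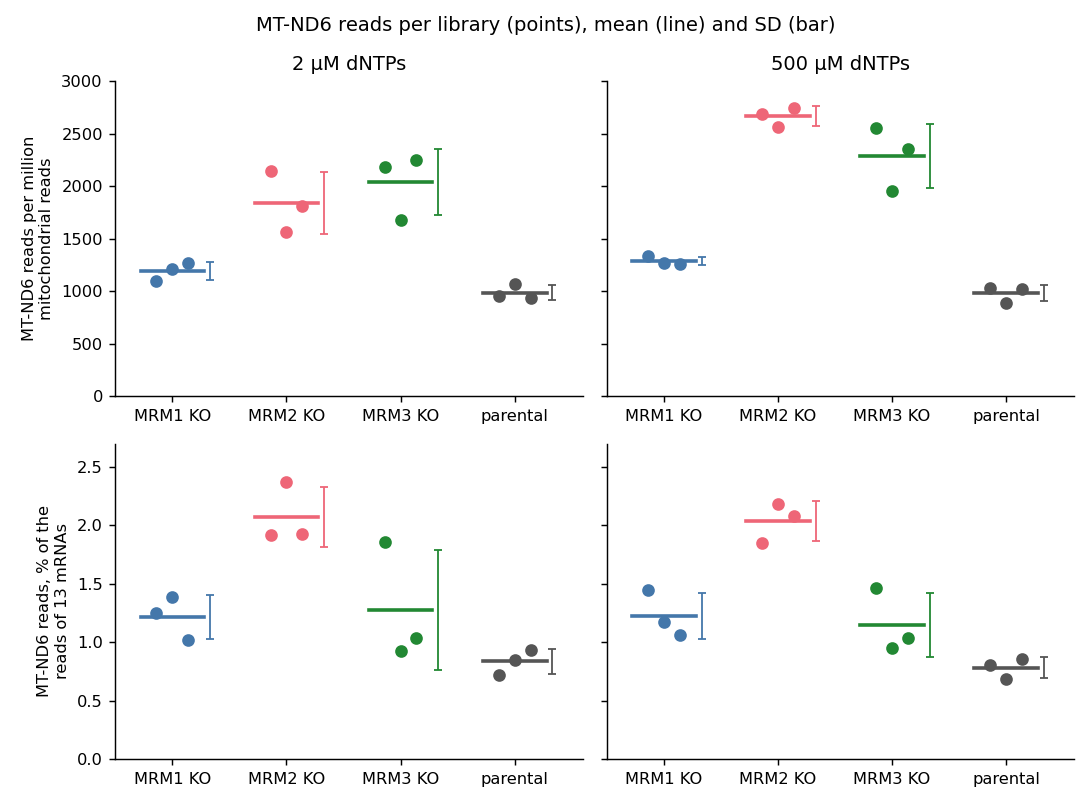
MT-ND6 reads per library as RPM of the mitochondrial reads (top) and as the percentage of the reads of the 13 mRNAs (bottom), for 3 knock-out lines and the parental line at 2 μM (left) and 500 μM dNTPs (right). Points are libraries, lines means and bars SD of 3 libraries. At 500 μM the MRM2 knock-out sits between 2560 and 2748 RPM, and parental cells between 892 and 1027.

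**Figure D2:**
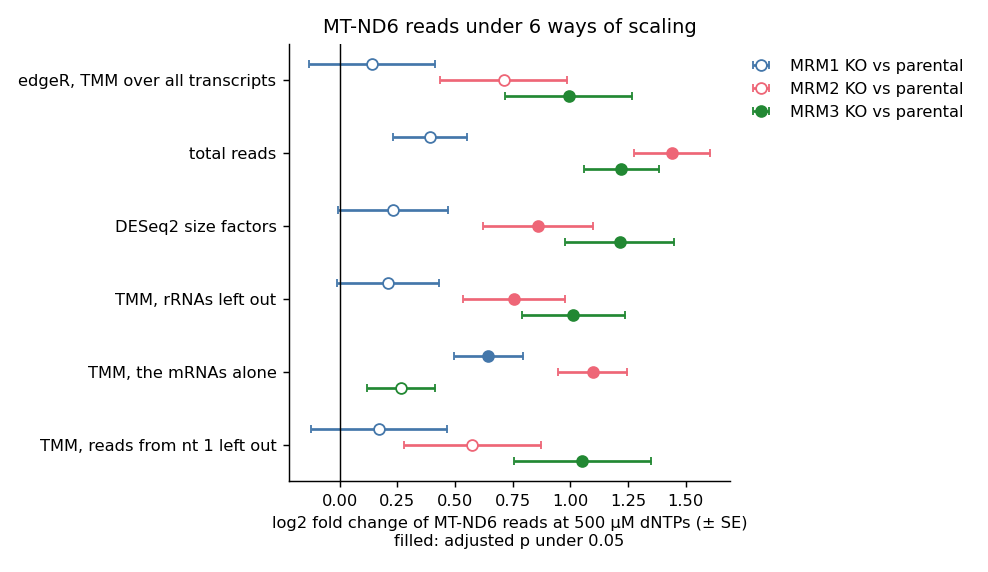
Log2 fold change of MT-ND6 reads at 500 μM dNTPs, knock-out over parental, under 6 ways of scaling the libraries (points, with SE bars; filled points have an adjusted p under 0.05). All 18 estimates are above 0, and MRM3 has the smallest of the 3 estimates when only the 13 mRNAs are used (0.27) and the largest with TMM over all transcripts (0.99).

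At 2 μM the RPM values of the knock-out lines were again above those of parental cells, but no difference passed on the TMM scale. MT-ND6 had 1100, 1208 and 1270 RPM in the MRM1 knock-out, against 960, 1068 and 934 in parental cells, and the log2 difference was 0.14 (SE 0.45, edgeR adjusted p = 0.77). In the MRM2 knock-out the values were 2146, 1565 and 1810 RPM and the log2 difference 0.66 (SE 0.45, edgeR adjusted p = 0.28). The MRM3 knock-out had 2183, 1675 and 2251 RPM and a log2 difference of 0.87 (SE 0.45, edgeR adjusted p = 0.21). On the TMM scale the MRM1 levels, 1227, 1108 and 1278, overlapped with the parental ones, 1149, 1162 and 962. By RPM all 9 knock-out libraries lay above the 3 parental ones, where the shares of transcripts without overlap were 24.3% for MRM1, 48.6% for MRM2 and 32.4% for MRM3. Over all transcripts, 0 of 37 passed for MRM1 by edgeR at 2 μM, 0 of them with an unadjusted p under 0.05 and 0 by DESeq2, while 7 passed for MRM2 (18.9%; 10.8% higher and 8.11% lower) and 6 for MRM3 (16.2%; 8.11% higher and 8.11% lower). Scaling to total reads, MT-ND6 passed in the MRM3 knock-out (1.04, edgeR adjusted p = 0.028), as it did on the TMM scale without the first MRM3 knock-out replicate (1.02, edgeR adjusted p = 0.032), and with the mRNAs alone it passed in the MRM2 knock-out (1.06, edgeR adjusted p = 0.0011).

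The other light-strand transcripts profiled are tRNAs. MT-TE, the adjoining tRNA, had log2 differences at 500 μM of -0.02 in MRM1, 0.21 in MRM2 and -0.40 in MRM3 knock-out cells (edgeR adjusted p = 0.99, 0.75 and 0.32), whereas MT-ND6 had 0.14, 0.71 and 0.99. For the 9 light-strand transcripts the median log2 difference in the MRM3 knock-out was -0.29, beside -0.16 over all 37, and 1 passed higher, MT-ND6 itself, and 1 lower. For the 7 complex I mRNAs the median was 0.99, with 5 higher and 0 lower. MT-ND6 is 1 of these 7, and the median is its own value. The other complex I mRNAs belong to the 12 heavy-strand mRNAs, where the median was 0.84, with 7 higher and 0 lower. Over all 37 transcripts, 21.6% passed higher and 18.9% lower. Of the 2 rRNAs, 0 passed higher and 1 lower.

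In the MRM2 knock-out at 500 μM the light-strand median was 0.21, beside 0.01 over all transcripts, and 0 of 9 passed in either direction. The complex I median was 0.12 with 1 lower, MT-ND5 (-1.01, SE 0.31, edgeR adjusted p = 0.013), and the heavy-strand mRNA median -0.36 with 3 lower. Both rRNAs passed lower, with a median of -0.90. In the MRM1 knock-out no list had a member that passed; the medians were 0.11 for the light strand, -0.50 for the complex I mRNAs, -0.50 for the heavy-strand mRNAs and -0.26 for the rRNAs, beside -0.08 overall. Scaling to total reads put the median of all transcripts at 0.19, 0.73 and 0.14 for MRM1, MRM2 and MRM3 in place of -0.08, 0.01 and -0.16 on the TMM scale, and above these medians MT-ND6 lay 0.20, 0.71 and 1.08 with total reads and 0.23, 0.70 and 1.15 with TMM. For MRM2 the calls turned from 5 lower to 18 higher of 20 with total reads, and for MRM3 from 8 higher of 15 to 11 of 14.

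At 2 μM, 3 of the 9 light-strand transcripts passed higher in the MRM2 knock-out, MT-TE among them (0.92, SE 0.31, edgeR adjusted p = 0.027), with a list median of 0.72 beside 0.16 over all transcripts. All 9 had a positive log2 difference there (0.16 to 1.60), while the heavy-strand mRNAs had a median of -0.47. None passed in the MRM1 or MRM3 knock-out at 2 μM, with list medians of 0.23 and 0.15.

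Over the 12 libraries at 500 μM, the transcripts whose TMM-scaled levels followed MT-ND6 most closely were mRNAs of the other strand. These were MT-ND1 (Pearson r = 0.85), MT-ND2 (0.84) and MT-ATP8 (0.81), a description over libraries that share their scaling factors and lines. In the MRM3 knock-out all 3 passed as well, with log2 changes of 1.64 for MT-ND1, 1.71 for MT-ND2 and 1.03 for MT-ATP8, against 0.99 for MT-ND6. In the MRM2 knock-out they had 0.33, 0.27 and 0.16, none of which passed (edgeR adjusted p = 0.55, 0.67 and 0.75).

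Within a replicate, lowering the dNTPs changed the relative level of MT-ND6 in a way that depended on the scale. Against 500 μM, the 2 μM libraries gave log2 differences of -0.35 in the MRM1 knock-out, -0.48 in MRM2, -0.84 in MRM3 and -0.36 in parental cells in the paired edgeR model. Only MRM3 passed (SE 0.25, edgeR adjusted p = 0.0058; 0.22, 0.10 and 0.20 for MRM1, MRM2 and parental cells). In that comparison 28 of 37 transcripts passed, 75.7%, with 32.4% higher and 43.2% lower. In the others 62.2% passed for MRM1 (29.7% higher, 32.4% lower), 62.2% for MRM2 (32.4% higher, 29.7% lower) and 64.9% for parental cells (35.1% higher, 29.7% lower).

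These values depended on which library served as the TMM reference. With each of the 24 libraries in turn, the MRM3 value was -1.31 to 0.39 and passed with 14 of 24, and the value was -0.59 to 0.19 for MRM1, -1.43 to 0.21 for MRM2 and -0.85 to 0.03 for parental cells. The MRM3 call was also lost without its first replicate (-0.79, adjusted p = 0.057 in edgeR) or its second (-0.63, edgeR adjusted p = 0.15), and with the mRNAs alone the value turned to 0.04. The differences of the dNTP effect between knock-out and parental cells were 0.01 for MRM1, -0.12 for MRM2 and -0.48 for MRM3, and none passed (interaction, edgeR adjusted p = 0.97, 0.95 and 0.34). Leaving out 1 replicate moved them to 0.30 to 0.46 for MRM1, -0.35 to -0.14 for MRM2 and -0.79 to -0.38 for MRM3. Beside this, tRNAs took 22.1% to 59.8% of the reads at 2 μM, against 6.31% to 18.8% at 500 μM.

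The most frequent read start of MT-ND6 at 500 μM was nucleotide 1, the A of the start codon, which follows the last nucleotide of MT-TE. It took 37.8%, 30.3% and 32% of the reads in the MRM1, 29.4%, 34.2% and 43.6% in the MRM2 and 29.8%, 30.7% and 17.0% in the MRM3 knock-out libraries, against 22.6%, 20.8% and 28.3% in parental ones. The MRM1 and MRM2 knock-out values lay above the parental ones without overlap, and those of MRM3 on both sides of them. Of the 13 mRNAs, 15.4% had start shares without overlap in either direction for MRM1, 61.5% for MRM2 and 0% for MRM3. The mean differences were 9.50 percentage points for MRM1, 11.9 for MRM2 and 1.96 for MRM3 (exact permutation test, two-sided p = 0.1, 0.1 and 0.8 for 3 against 3 libraries, where 0.1 is the smallest possible).

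The lengths of the MT-ND6 fragments differed between the same libraries. MT-ND6 fragments averaged 129, 113 and 122 nt in the MRM1, 124, 127 and 130 nt in the MRM2 and 127, 118 and 104 nt in the MRM3 knock-out, against 107, 103 and 125 nt in parental cells. The mean lengths differed by 10.1, 15.6 and 5.07 nt for MRM1, MRM2 and MRM3 (exact permutation p = 0.3, 0.2 and 0.6, adjusted 0.45, 0.45 and 0.60), and the part of fragment length in the start share was not tested. In the same libraries the mean fragment of all transcripts was 134 to 141 nt in MRM1, 135 to 141 nt in MRM2 and 121 to 140 nt in MRM3 knock-out cells, against 123 to 140 nt in parental cells.

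Among the 13 mRNAs of parental cells at 500 μM, the share of 23.9% ± 3.93 (SD, n = 3) at nucleotide 1 was exceeded only by the 207-nt frame of MT-ATP8 with 50.2% ± 9.29. MT-ND3 had 19.8% ± 8.18, and the other 10 mRNAs had 0.30% to 14.2%. At 2 μM, where fragments averaged 46.9 to 51.0 nt in the 12 libraries, 2.53% to 6.30% of MT-ND6 reads began at nucleotide 1.

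Of the other starts, T2, T377 and T353 took 1.73%, 1.46% and 0.98% of the reads in parental cells. Of the 3′ ends, 3.81% ± 1.12 fell on the last annotated nucleotide, G525, in MRM1, 3.69% ± 1.58 in MRM2 and 4.11% ± 0.32 in MRM3 knock-out cells, against 4.86% ± 0.06 in parental cells. C105, T79, T75 and T503 were next in parental cells, each with 0.63% to 0.76%, which is between 2 and 7 reads per library.

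**Figure D3:**
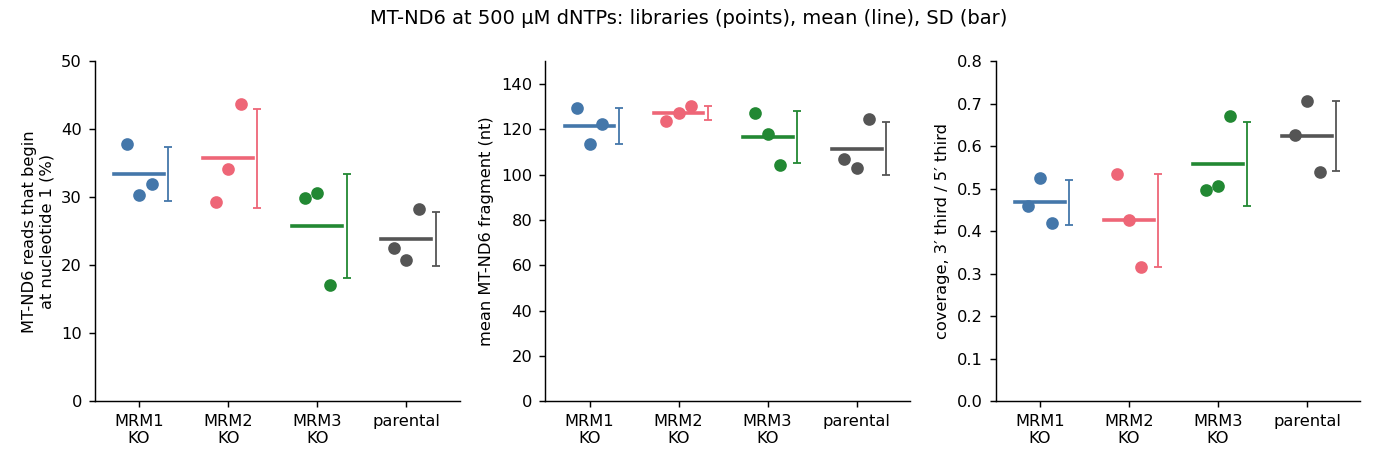
Share of MT-ND6 reads that begin at nucleotide 1 (left, %), mean MT-ND6 fragment length (middle, nt) and mean coverage of the last 175 nt over that of the first 175 nt (right) at 500 μM dNTPs. Points are libraries, lines means and bars SD of 3 libraries. All MRM1 and MRM2 knock-out libraries have a larger start share (29.4% or more) and a smaller coverage ratio (0.53 or less) than any parental library.

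Read starts were also tested in windows of 50 nt with the reads of the whole transcript as offset, which asks where a transcript starts its reads and not how many it has. Of 267 windows in mRNAs and rRNAs, 9 lay in MT-ND6, and none of the 9 passed in any knock-out (edgeR), while 11 of all windows passed for MRM2 (4.12%; 1.5% higher and 2.62% lower) and 0 for MRM1 and 0 for MRM3 (by DESeq2 with the same offsets 0 of the MT-ND6 windows as well). Nucleotides 451 to 525 were not tested: their windows had 0 to 11 read starts per library and fell below the read filter. An unadjusted p under 0.05 was found for 2, 4 and 0 of the 9 windows in MRM1, MRM2 and MRM3 (22.2%, 44.4% and 0%), beside 8.61%, 28.8% and 5.24% of all 267 windows. Nucleotides 1 to 50 held 44.1% ± 3.43 of the reads in MRM1, 45.7% ± 7.16 in MRM2 and 36.4% ± 5.92 in MRM3 knock-out cells, against 34.1% ± 3.20 in parental cells (SD, n = 3 each). The log2 differences of this window were 0.36, 0.42 and 0.07 (edgeR adjusted p = 0.47, 0.075 and 0.98). For MRM2 the windows of nucleotides 51 to 100 and 351 to 400 had -0.64 and -0.65 (edgeR adjusted p = 0.091 and 0.075). The first window passed without the first MRM2 knock-out replicate (0.51, edgeR adjusted p = 0.048) or without the third parental replicate (0.49, edgeR adjusted p = 0.038), and the window of nucleotides 351 to 400 passed when the 6 libraries were fitted alone (-0.65, edgeR adjusted p = 0.038).

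Coverage along MT-ND6 was uneven and its shape depended on the dNTP level more than on the line. At 2 μM it peaked at nucleotides 478 to 482 in all 12 libraries, and at the lowest point of a library 0 to 14 reads remained. Nucleotides 451 to 500 had 2.75 ± 0.23 times the mean coverage in MRM1, 2.53 ± 0.11 times in MRM2 and 2.81 ± 0.39 times in MRM3 knock-out cells, against 2.74 ± 0.04 times in parental cells (SD, n = 3 each). At 500 μM the same window had 0.57 ± 0.11, 0.51 ± 0.07 and 0.65 ± 0.11 times, against 0.73 ± 0.12 times. There the peak lay at nucleotides 45 to 73 and the lowest value at nucleotides 520 to 525 in all 12 libraries. In every library the coverage at nucleotide 1 equalled the reads that began there. In the parental 500 μM libraries the 26 to 40 reads over nucleotide 525 all ended on it. Counted fragments thus stopped at these annotated ends. With mean fragments of 103 to 130 nt, this limits the coverage near both ends, and its part in the slope was not tested.

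The slope was steeper in some knock-out libraries at 500 μM. The ratio of the mean coverage of the last 175 nt to that of the first 175 nt was 0.46, 0.52 and 0.42 in the MRM1 knock-out, 0.53, 0.43 and 0.32 in MRM2 and 0.50, 0.51 and 0.67 in MRM3, against 0.63, 0.71 and 0.54 in parental cells. MRM1 and MRM2 did not overlap with parental cells, MRM3 did. Of the 13 mRNAs, 23.1% had ratios without overlap for MRM1, 84.6% for MRM2 and 15.4% for MRM3. The mean differences were -0.16, -0.20 and -0.07 (exact permutation test, two-sided p = 0.1, 0.1 and 0.5, adjusted 0.15, 0.15 and 0.50). At 2 μM the ratio was above 1 in every library, 1.58 to 1.78 in MRM1, 1.26 to 1.85 in MRM2 and 1.89 to 2.19 in MRM3 knock-out cells, against 1.77 to 1.99 in parental cells.

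**Figure D4:**
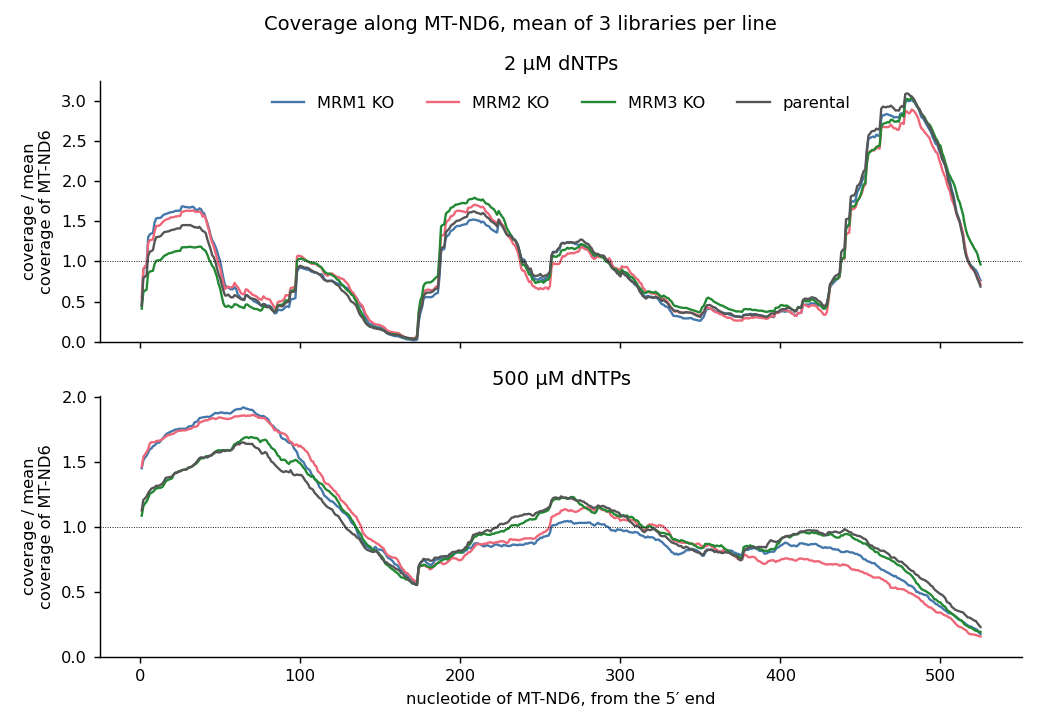
Coverage along MT-ND6 relative to its own mean, averaged over 3 libraries per line, at 2 μM (top) and 500 μM dNTPs (bottom), by nucleotide from the 5′ end. Under 2 μM all lines peak at nucleotides 478 to 482, whereas under 500 μM the peak is at nucleotides 45 to 73.

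At 2 μM the most frequent starts followed adenosines. The 8 most frequent starts of parental cells other than nucleotide 1 all lay directly 3′ of an A, the residue at which reverse transcription had stopped, among them A440, A1, A443, A97, A462, A453 and A437. They were chosen after their values were seen. Each held 2.03% to 4.27% of the MT-ND6 reads at 2 μM in the MRM1, 2.02% to 3.84% in the MRM2 and 2.06% to 3.46% in the MRM3 knock-out, against 2.32% to 3.37% in parental cells. At 500 μM the same starts held 0 to 1.73% of the reads of parental cells.

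The RT-stop score sets the fraction of reads that stop at a residue at 2 μM over that at 500 μM in the same replicate, with 1 added to stops and coverage. It could be tested at 197 of the 525 nucleotides, those with a coverage of at least 50 reads in all 24 libraries. In parental cells 34 of the 197 (17.3%) stopped reverse transcription more at 2 μM (limma, adjusted over 11957 positions of all transcripts), against 27.2% of all positions. Another 34 (17.3%) passed with a log2 score below 0, against 30.1% of all positions. Of the other 12 mRNAs, MT-ATP8 alone had a lower percentage (14.1%), and the highest was 33.0% in MT-ND4L. Among residues, 12 of 30 A (40%), 9 of 72 G (12.5%), 13 of 79 T (16.5%) and 0 of 16 C passed higher, beside 56.2%, 15%, 13.7% and 8.41% of these residues in the heavy-strand mRNAs. The median log2 score was 0.80 for A and -0.80 for C in MT-ND6, and 1.37 and -0.87 in the heavy-strand mRNAs. The called residues clustered: of 17 tested nucleotides between 401 and 450, 11 passed higher and 0 lower, whereas of 42 between 201 and 250, 2 passed higher and 22 lower. Where few reads stop, the 1 that was added makes the score depend on coverage. Parental coverage of MT-ND6 averaged 265 reads at 2 μM and 141 at 500 μM. Nucleotides 201 to 250 had 1.33 and 1.00 times these means. Lower scores there need not mean fewer stops, and the part of coverage was not tested.

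The 5 highest scores all fell on A. At A440 (chrM position 14234), 151 of 597, 89 of 360 and 60 of 253 reads stopped at 2 μM in parental cells, against 0 of 156, 1 of 125 and 1 of 132 at 500 μM, where the count of 0 allows a share of up to 1.92% and counting error only is covered. The mean shares were 24.6% ± 0.80 and 0.52% ± 0.45 (SD, n = 3), and the mean log2 score was 4.43 (SE 0.41, limma adjusted p = 1.1e-06). A437 and A443, each 3 nt away, followed with 23.2% ± 2.68 at 2 μM and 0.80% ± 0.82 at 500 μM, and with 15.5% ± 1.86 and 0.47% ± 0.41. Their log2 scores were 4.13 and 3.74 (limma adjusted p = 6.6e-07 and 7e-07). Near the 5′ end, A4 had 22.4% ± 2.40 at 2 μM and 1.99% ± 0.75 at 500 μM (log2 score 3.17), and A8 had 7.74% ± 2.44 and 0.42% ± 0.39 (3.15). Since 0 to 6 reads stopped at these residues in each parental 500 μM library, the scores depend on the 1 that was added.

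These stops were present in every line. At A440 under 2 μM, 27.0% ± 4.99 of reads stopped in the MRM1, 23.1% ± 1.85 in the MRM2 and 25.2% ± 2.59 in the MRM3 knock-out, against 24.6% ± 0.80 in parental cells (SD, n = 3 each), and the log2 score differed by -0.38, -0.67 and -0.28 (limma adjusted p = 0.91, 0.61 and 0.97). At A4 the shares were 28.0%, 23.1% and 23.0%, against 22.4%. Of the 34 residues called in parental cells, 27 had a score above 1 in all 3 replicates of the MRM1, 28 of the MRM2 and 26 of the MRM3 knock-out, against 33 in the parental replicates that chose them. In every replicate of all lines together, 20 of the 34 did.

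**Figure D5:**
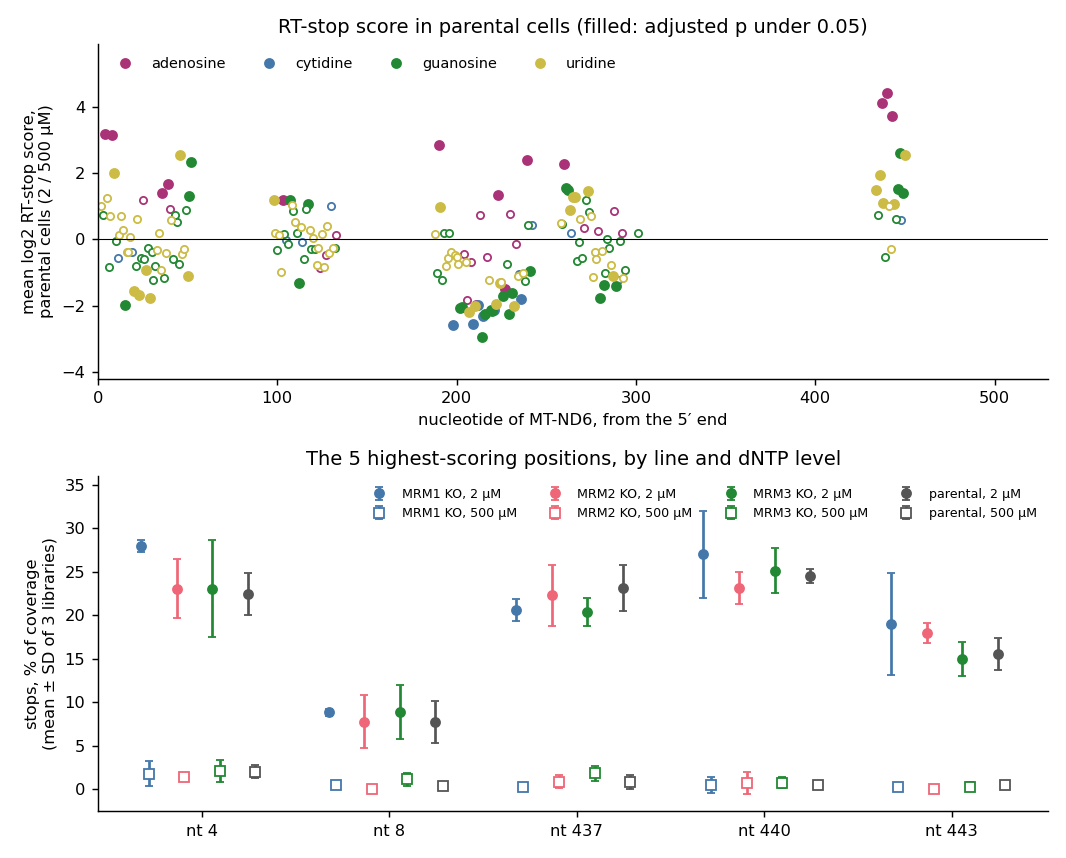
Top, mean log2 RT-stop score (2 μM over 500 μM) in parental cells at the 197 tested nucleotides of MT-ND6, by kind of residue; filled points have an adjusted p under 0.05. Bottom, percentage of reads that stop at the 5 highest-scoring residues in each line at 2 μM (filled) and 500 μM (open), mean and SD of 3 libraries. At nucleotide 440 the 4 lines lie between 23.1% and 27.0% at 2 μM and under 1% at 500 μM.

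The RT-stop score was compared between each knock-out and parental cells residue by residue. None of the 197 passed for MRM1, MRM2 or MRM3 (limma), with smallest adjusted p of 0.43, 0.13 and 0.39, and over all 11957 positions 1 passed for MRM1 (0.00836%), 0 for MRM2 and 1 for MRM3 (0.00836%). The known MRM2 target in the 16S mt-rRNA was thus not called either. The paper reports its methylation lost in this line by cleavage protection and mass spectrometry. For MRM2 the absence of calls on MT-ND6 therefore says little about methylation. An unadjusted p under 0.05 was found at 17, 28 and 16 residues of MT-ND6 (8.63%, 14.2% and 8.12%), beside 7.81%, 15.1% and 6.59% of all positions. With edgeR on the 2 μM stop counts only 26 residues of MT-ND6 could be tested, and 0 passed in each knock-out. With the 2 μM stop ratio alone, nucleotides 124 and 263 passed for MRM2 (log2 differences of 1.77 and 1.84, limma adjusted p = 0.042 for both). The median log2 difference over the 197 was 0.24, 0.42 and 0.17, beside 0.09, 0.29 and 0.10 over all positions.

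The residues with the smallest p rested on few stops. For MRM1 these were T98 (log2 difference 2.00), A223 (1.89) and G112 (2.18), with limma adjusted p between 0.43 and 0.49. At T98, 8, 10 and 7 reads stopped at 2 μM in the MRM1 knock-out, against 16, 12 and 3 in parental cells, and 0, 0 and 1 at 500 μM, against 4, 1 and 3. For MRM2 they were T118 (2.44), T263 (1.82) and T450 (-1.78), with limma adjusted p of 0.13, 0.13 and 0.14. T118 had 4, 4 and 3 stops at 2 μM in the MRM2 knock-out, against 1, 3 and 4 in parental cells, and passed without the third parental replicate (3.21, limma adjusted p = 0.042). For MRM3 they were T50 (2.15), G42 (1.54) and G112 (1.76), with limma adjusted p between 0.39 and 0.66. T50 had 0 to 1 stops at 2 μM in each MRM3 knock-out library and 0 in each parental one.

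The second measure of 2′-O-methylation could not be read on MT-ND6. The cleavage protection score compares the 3′ ends at a nucleotide with those of the 6 on either side and needs a median of at least 15 ends there. In the 12 libraries at 500 μM the highest such median was 4.5 and the typical one 1, so that 0 of the 525 nucleotides had a score. Methylation of MT-ND6 was therefore not measurable by cleavage at this depth, which is not evidence of its absence.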

How the data were processed

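Raw counts of read ends and coverage per nucleotide were deposited by the authors, who aligned reads with STAR 2.5.3a to GRCh38.p13, per the submitters' processing notes. The deposited RT-stop ratio is a fraction computed by the authors with 1 added to stops and coverage, and the deposited cleavage protection score is a fraction set to 0 where negative. The deposited p-values and differences of the authors' comparisons (10 columns) were not used. Groups came from the sample titles, because the genotype field of 18 of 24 samples names another line. Whether a column holds 5′ or 3′ ends was checked against coverage, which follows at all 525 MT-ND6 positions when the columns headed as read ends hold the 5′ ends. Replicate pairs within a group (24) all differed beyond sampling noise.

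Reads per transcript are the sum of 5′ ends. They were tested with edgeR 4.0.16 (TMM, quasi-likelihood; at least 10 reads in at least 3 libraries), the 12 libraries of a dNTP level in 1 fit, and the 2 dNTP levels in a model with the replicate of a line as block. RT-stop scores were tested with limma 3.58.1 (trend). Tests are two-sided, with Benjamini-Hochberg adjustment over all features and a threshold of 0.05. Alternatives were DESeq2 1.42.0, total reads, the rRNAs left out, the mRNAs alone, 3′ ends, other filters, bins and pseudocounts, a replicate block and each replicate left out; leaving out reads that begin at nucleotide 1 and each library in turn as TMM reference were chosen after seeing the data. R 4.3.3 and Python 3.11.15 were used, and the tests were tested on simulated data. Named transcripts were the chromosomal neighbours, the mRNA next in level and the 3 nearest patterns; named residues were the 5 highest scores, the 5 most frequent starts and ends (1 start is not reported here), and for each knock-out the 3 smallest p. The transcript, lists and tests were chosen with earlier results of these data known. The limit given for a count of 0 covers counting error only, since reads carry no molecular identifiers. P-values, SE and confidence intervals measure the spread between culture plates of 1 line.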

Additional observations from a re-analysis of the deposited data

How the results depend on the processing

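Over all results and alternatives, 267 values kept their direction and side of the threshold or, for counts and values with no threshold, stayed close to the main value, 19 reversed, 19 passed newly, 6 lost the call and 6 counts moved. MT-ND6 reads against parental cells at 500 μM stayed positive under all 17 alternatives per line: 0.06 to 0.65 for MRM1, 0.58 to 1.44 for MRM2 and 0.27 to 1.66 for MRM3 (log2). The alternatives with 3′ ends and with no filter on reads returned the main values, so they test nothing further, though the 267 include them. For MRM1 the TMM reference with the lowest value also was the main fit. MRM1 passed with the mRNAs alone (0.65). MRM2 passed with total reads (1.44), DESeq2 (0.86), the rRNAs left out (0.76), the mRNAs alone (1.10) and its 6 libraries alone (0.64), and 1 replicate left out gave 0.63 to 0.76. Without the reads that begin at nucleotide 1 it did not pass (0.58). MRM3 was lost with the mRNAs alone (0.27) and its 6 libraries alone (0.71). At 2 μM, MRM2 passed with the mRNAs alone (1.06) and MRM3 with total reads (1.04); leaving out 1 replicate gave 0.70 to 1.19 for MRM3. For 2 μM against 500 μM, the mRNAs alone turned MRM1 to 0.046, MRM3 to 0.044 and parental cells to 0.11, and total reads turned parental cells to 0.0086 and took MRM3 to -0.17 below the threshold. MRM2 passed with total reads (-0.54), DESeq2 (-0.56) and the rRNAs left out (-0.70), and parental cells with DESeq2 (-0.41). Leaving out 1 replicate gave 0.13 to 0.29 for MRM1, the opposite of its main direction, -0.65 to -0.38 for MRM2, -0.82 to -0.63 for MRM3 and -0.26 to -0.11 for parental cells, and 0.30 to 0.46, -0.35 to -0.14 and -0.79 to -0.38 for the differences of the dNTP effect in MRM1, MRM2 and MRM3. TMM takes 1 library as reference, and each of the 24 in turn gave -0.59 to 0.19 for MRM1, -1.43 to 0.21 for MRM2, -1.31 to 0.39 for MRM3 and -0.85 to 0.032 for parental cells, so the choice of reference alone turned these directions. The differences of the dNTP effect then ranged from -0.22 to 0.40 for MRM1, -0.58 to 0.68 for MRM2 and -1.01 to 0.50 for MRM3, which passed with 1 of the 24. At 500 μM, each of the 12 libraries as reference gave 0.58 to 1.14 for MRM2, with 8 of 12 passing, and 0.71 to 1.66 for MRM3, with 11 of 12. The MRM1 difference of the dNTP effect turned to -0.12 with total reads and -0.061 with the mRNAs alone. Bins called for MRM2 were 1 with its 6 libraries alone and 0 to 1 without 1 replicate. RT-stop residues called for MRM2 were 2 with the 2 μM stop ratio alone, and 1, T118, without the third parental replicate (0 to 1 over all replicates left out). Residues with more stops at 2 μM in parental cells were 107 with a coverage of at least 20 reads, where more residues are tested, and 24 to 28 without 1 replicate. At least 200 reads left no MT-ND6 residue to test. Fragment length turned to -0.21 nt for MRM2 in the 2 μM libraries and ranged from -0.34 to 11.7 nt for MRM3 without 1 replicate, and the coverage ratio of MRM3 turned to 0.20 at 2 μM. Same-numbered replicates of different lines did not deviate together (8 of 18 pairs with a correlation over 0.1, -0.77 to 0.59), so the numbers do not pair the lines. With a replicate block MT-ND6 changed by 0.14, 0.71 and 0.98 in MRM1, MRM2 and MRM3 at 500 μM (edgeR adjusted p = 0.86, 0.054 and 0.0021), and no call changed. The cause of the other changes was not tested. TMM rests on 37 transcripts, so read changes are relative. Depth limits MT-ND6 residues, of which 197 of 525 could be tested.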
